A study of Mus musculus with 14 samples.

Results

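The genes examined were 8 that sense double-stranded RNA (dsRNA) or act in the response to it, *Ifih1*, *Dhx58*, *Tlr3*, *Eif2ak2*, *Mavs*, *Irf3*, *Adar* and *Isg20*. They were chosen by name for what their proteins do, with earlier results of these data known. They are 8 of the 20337 genes named in the RNA-seq count files. Where a gene had several RefSeq transcripts, the transcript with the highest mean count stood for it. RNA-seq was performed on mouse full-grown oocytes, arrested in meiotic prophase with an intact germinal vesicle and freed of cumulus cells by pipetting. The females were 4 to 6 weeks old and had received 5 IU of equine chorionic gonadotropin 48 h earlier. Each library held 20 oocytes pooled from several animals, so single animals were not measured.

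The 14 libraries formed 5 groups. *Ago2* fl/fl oocytes (3 libraries) carried the floxed *Ago2* gene and are labelled wild-type. *Ago2* ADH oocytes (3 libraries) came from females with 1 floxed allele and 1 knock-in allele whose product cannot cleave RNA, in which a Cre transgene under the *Zp3* promoter, active in growing oocytes, removes the floxed allele. *Ago2* null oocytes (2 libraries) lacked *Ago2*, and came from floxed females of the same crosses that carried this Cre. *Dicer* WT and *Dicer* KO oocytes (3 libraries each) were wild-type for *Dicer* or carried an oocyte-specific deletion of it. The breeding scheme lists the *Ago2* fl/fl controls without Cre, the Cre status of *Dicer* WT females is not given in the sources used here, and all mice were on a mixed background that was mainly C57BL6. The comparisons ask whether loss of RNA interference (RNAi) in the oocyte was accompanied by changes in dsRNA sensors and by an interferon-type response.

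In most mammalian cells long dsRNA is treated as a sign of a virus. RIG-I (*Ddx58*), MDA5 (*Ifih1*) and LGP2 (*Dhx58*) bind dsRNA in the cytoplasm, and RIG-I and MDA5 signal through MAVS on mitochondria. TLR3 binds dsRNA in endosomes, and both routes lead to the transcription factor IRF3, which switches on interferon beta and a set of interferon-stimulated genes. PKR (*Eif2ak2*) is a kinase that binds dsRNA and halts translation by phosphorylating eIF2-alpha. ADAR1 (*Adar*) edits adenosine to inosine in dsRNA and so lowers its recognition as foreign, and ISG20 is an interferon-inducible exonuclease that degrades single-stranded RNA. Growing mouse oocytes instead cut endogenous dsRNA into short interfering RNAs with DICER, and AGO2 uses these to cleave matching mRNAs.

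Many interferon-inducible promoters carry an interferon-stimulated response element (ISRE), which binds IRF proteins and the complex that answers interferon. Windows from 250 bases before to 50 bases after the transcription start, from RefSeq on GRCm38, were searched on both strands for the letters GAAA, any 2 bases and GAAA again (ISRE) and for the shorter IRF core of AA, any 2 bases and GAAA, which every ISRE match contains. A window was given for 7 of the 8 genes, all except *Dhx58*. An ISRE was found for 2 of them, *Ifih1* and *Eif2ak2*, and an IRF core for 5, these 2 and *Tlr3*, *Adar* and *Isg20*. Among all 27025 genes with a window, 3.99% held an ISRE and 26.7% an IRF core. The windows of 6 genes are shown. *Ifih1*, a sensor with few counts, and *Eif2ak2*, called up in both *Ago2* mutants, hold the ISRE. *Tlr3*, *Irf3* and *Isg20*, whose counts also differed between mutants and controls, do not. *Oas3*, an interferon-stimulated gene described later, is included. Each is written 5′ to 3′ along the gene's strand, and capitals mark IRF core and ISRE matches, or their complement where the match is on the other strand.
Ifih1: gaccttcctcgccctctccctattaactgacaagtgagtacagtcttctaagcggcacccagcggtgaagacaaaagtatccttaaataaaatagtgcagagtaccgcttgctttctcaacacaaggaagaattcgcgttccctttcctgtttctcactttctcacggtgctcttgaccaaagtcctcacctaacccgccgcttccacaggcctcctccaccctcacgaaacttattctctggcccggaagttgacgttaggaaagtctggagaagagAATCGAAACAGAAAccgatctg
Eif2ak2: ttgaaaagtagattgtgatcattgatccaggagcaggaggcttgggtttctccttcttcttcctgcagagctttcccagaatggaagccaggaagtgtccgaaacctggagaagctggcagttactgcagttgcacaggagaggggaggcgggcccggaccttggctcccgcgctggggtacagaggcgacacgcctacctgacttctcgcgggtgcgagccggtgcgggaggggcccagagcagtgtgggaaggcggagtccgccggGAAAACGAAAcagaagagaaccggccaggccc
Tlr3: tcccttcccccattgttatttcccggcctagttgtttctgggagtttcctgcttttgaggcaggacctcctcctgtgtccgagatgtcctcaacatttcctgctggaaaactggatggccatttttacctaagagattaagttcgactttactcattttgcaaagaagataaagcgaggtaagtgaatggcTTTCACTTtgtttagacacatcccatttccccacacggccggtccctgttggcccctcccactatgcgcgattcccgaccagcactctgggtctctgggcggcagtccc
Irf3: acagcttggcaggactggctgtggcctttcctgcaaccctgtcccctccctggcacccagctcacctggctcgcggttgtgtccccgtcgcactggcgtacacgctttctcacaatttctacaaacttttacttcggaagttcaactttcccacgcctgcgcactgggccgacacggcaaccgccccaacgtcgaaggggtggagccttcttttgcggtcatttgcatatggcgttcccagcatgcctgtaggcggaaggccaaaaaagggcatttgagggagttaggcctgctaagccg
Isg20: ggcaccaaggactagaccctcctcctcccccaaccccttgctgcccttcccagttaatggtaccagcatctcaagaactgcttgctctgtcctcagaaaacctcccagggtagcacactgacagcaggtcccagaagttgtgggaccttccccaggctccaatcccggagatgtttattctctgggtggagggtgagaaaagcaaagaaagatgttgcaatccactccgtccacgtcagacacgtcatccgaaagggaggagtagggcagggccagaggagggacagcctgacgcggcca
Oas3: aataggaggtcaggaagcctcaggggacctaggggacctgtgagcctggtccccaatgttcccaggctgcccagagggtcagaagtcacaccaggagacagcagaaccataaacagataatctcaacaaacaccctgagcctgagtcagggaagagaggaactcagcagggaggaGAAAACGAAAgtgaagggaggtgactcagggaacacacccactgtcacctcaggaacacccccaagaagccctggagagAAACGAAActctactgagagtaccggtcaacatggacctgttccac

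The *Ifih1* window lies at chr2:62646206-62646505 on the minus strand and its ISRE begins 32 bases after the start, overlapping 2 IRF cores. The *Eif2ak2* window (chr17:78882523-78882822, minus strand) has its ISRE 18 bases after the start, with 1 IRF core inside it. The *Tlr3* window (chr8:45410331-45410630, minus strand) has 1 IRF core on the opposite strand, 59 bases before the start. The *Irf3* window (chr7:44997398-44997697, plus strand) has no match. The *Isg20* window shown (chr7:78913515-78913814, plus strand) begins 250 bases before position 78913765, where GENCODE starts the transcript used for its counts, and has no match. An IRF core lies in another window given for *Isg20*. The *Oas3* window (chr5:120777610-120777909, minus strand) has an ISRE 75 bases before the start. None of the letters searched was found for *Mavs*. In the *Adar* windows an IRF core was found downstream of the third start given, and none near the other two. These matches describe sequence only.

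The total count on transcripts, in units of 1e+06, was 29.4 to 58.3 per library. The detection floor, taken as 3 counts, therefore corresponds to 0.0515 to 0.102 CPM, counts per 1e+06 counts on transcripts. Libraries of 1 group differed beyond sampling noise, and none was taken for a repeat of another. *Ago2* itself had a log2 fold change of -0.87 in *Ago2* ADH oocytes and one of -1.95 in *Ago2* null oocytes. The *Dicer1* count was higher in *Dicer* KO oocytes (log2 fold change 1.26), and since counts are per transcript they do not show the deleted exon and do not check that label. The tally of alignments that were not unique was set against its sum with the counts on transcripts and the reads on no transcript. It made up 33.2 to 34.6% of this sum in *Ago2* fl/fl, 57.3 to 58.1% in *Ago2* ADH, 57 to 58.3% in *Ago2* null, 25.6 to 31.5% in *Dicer* WT and 44.4 to 49.5% in *Dicer* KO libraries. A read shared by transcripts of 1 gene counts for each of them, so this share is not one of reads or alignments. This share moved with every mutant comparison below, and its part in the results was not tested. The libraries of 1 *Ago2* genotype shared 1 lane, a different one for each, so the effects of lane and of *Ago2* genotype cannot be told apart.

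The sum over 14 oocyte marker genes was 13651 to 20387 CPM in every library, against 1.22 to 3.42 CPM for 9 leukocyte markers. Granulosa and cumulus markers summed to 59.8 to 106 CPM (12 genes) and endothelial and blood markers to 42.4 to 60.5 CPM (7 genes). Granulosa sums were 79.4 to 86.2 CPM in *Ago2* fl/fl, 63.4 to 70.7 in *Ago2* ADH and 59.8 to 62.3 in *Ago2* null, and 98.2 to 106 in *Dicer* WT and 83.1 to 88.2 in *Dicer* KO libraries. These sums were lower in each mutant, and they weigh genes with high counts most. *Cyp19a1* had 2103, 1993 and 1607 counts in *Ago2* fl/fl libraries, against 53, 35 and 58 for *Fshr*. Of 9, 10 and 8 tested in *Ago2* ADH, *Ago2* null and *Dicer* KO oocytes, 3, 1 and 2 were called down and 0 up. Over all transcripts 20.1%, 19.1% and 17.8% were called down and 20.5%, 18.1% and 16.7% up. Unlike the granulosa sums, *Inha* was higher in the *Ago2* mutants, with means of 0.753 CPM in fl/fl, 1.44 in ADH and 1.39 in null. All 3 are named after their values were seen. Endothelial and blood sums were 48.2 to 52.9 CPM in *Ago2* fl/fl, 49.7 to 54.6 in *Ago2* ADH, 42.4 to 43.9 in *Ago2* null, 55.1 to 60.5 in *Dicer* WT and 47.1 to 51.1 in *Dicer* KO libraries, so *Ago2* null and *Dicer* KO libraries lay below their controls without overlap. Of these markers *Kdr*, a receptor of endothelial cells, was called down in all 3 mutants (log2 fold changes -2.35, -2.56 and -3.21) and is named after its values were seen. It was the only call among the 4 endothelial and blood markers tested in each comparison, whose median log2 fold changes were 0.05, -0.19 and -0.28. The part of these shifts in the decreases below was not tested.

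The levels of the 8 genes differed widely. Levels are compared between genes per length, as CPM per kilobase of transcript. In *Ago2* fl/fl oocytes *Mavs* was highest at 9.65, followed by *Adar* at 4.78, *Tlr3* at 3.16, *Irf3* at 2.36, *Isg20* at 0.483, *Eif2ak2* at 0.444, *Dhx58* at 0.0545 and *Ifih1* at 0.00848 CPM per kilobase. In this order the libraries of *Tlr3* and *Irf3* overlapped, as did those of *Isg20* and *Eif2ak2*. Over the 6 control libraries *Mavs* stood above 76.7% of 20241 genes with a length, *Adar* above 67.4%, *Tlr3* above 65.9% and *Eif2ak2* above 52.3%. *Dhx58* stood above only 29.6% and *Ifih1* above 18.5%.

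*Mavs* had the highest and *Ifih1* the lowest mean of the 8 in every group, while the order between them changed. The libraries of *Ifih1* and *Dhx58* overlapped in *Dicer* WT and *Dicer* KO oocytes. In *Ago2* ADH oocytes *Irf3* (4.41 CPM per kilobase) overlapped *Adar* (4.49), and *Isg20* (1.45), *Tlr3* (1.11) and *Eif2ak2* (0.901) followed, each overlapping the next. *Ago2* null oocytes had the same order, with *Isg20* at 2.5 and *Tlr3* at 1.13 CPM per kilobase. In *Dicer* WT oocytes *Isg20* (4.19) and *Tlr3* (4.17) came next after *Mavs* (8.55) and overlapped. In *Dicer* KO oocytes *Irf3* (4.43) came next after *Mavs* (11.5), and *Isg20* (1.24) came after *Adar* (3.15), *Eif2ak2* (2.22) and *Tlr3* (1.76).

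The cytoplasmic sensors *Ifih1* and *Dhx58* were at or near the detection floor in all groups. *Ifih1* (chromosome 2, 62595618 to 62646255), which encodes MDA5, was counted 6, 1 and 1 times in *Ago2* fl/fl libraries, 0, 0 and 1 in *Ago2* ADH, 0 and 3 in *Ago2* null, 2, 1 and 1 in *Dicer* WT and 2, 0 and 3 in *Dicer* KO. It passed the filter on low counts in no comparison. *Dhx58* (chromosome 11, 100694884 to 100704271), which encodes LGP2, was counted 4, 8 and 10 times in *Ago2* fl/fl, 6, 8 and 6 in *Ago2* ADH, 10 and 8 in *Ago2* null, 0, 12 and 2 in *Dicer* WT and 1, 0 and 6 in *Dicer* KO. Each mutant group overlapped its controls, and no rise of either sensor over the controls was detectable at this depth. *Dhx58* could be tested only in *Ago2* null oocytes, where its log2 fold change was 0.37 (95% interval -1.13 to 1.87, adjusted p = 0.719). No fold is given for *Ifih1*.

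**Figure D1:**
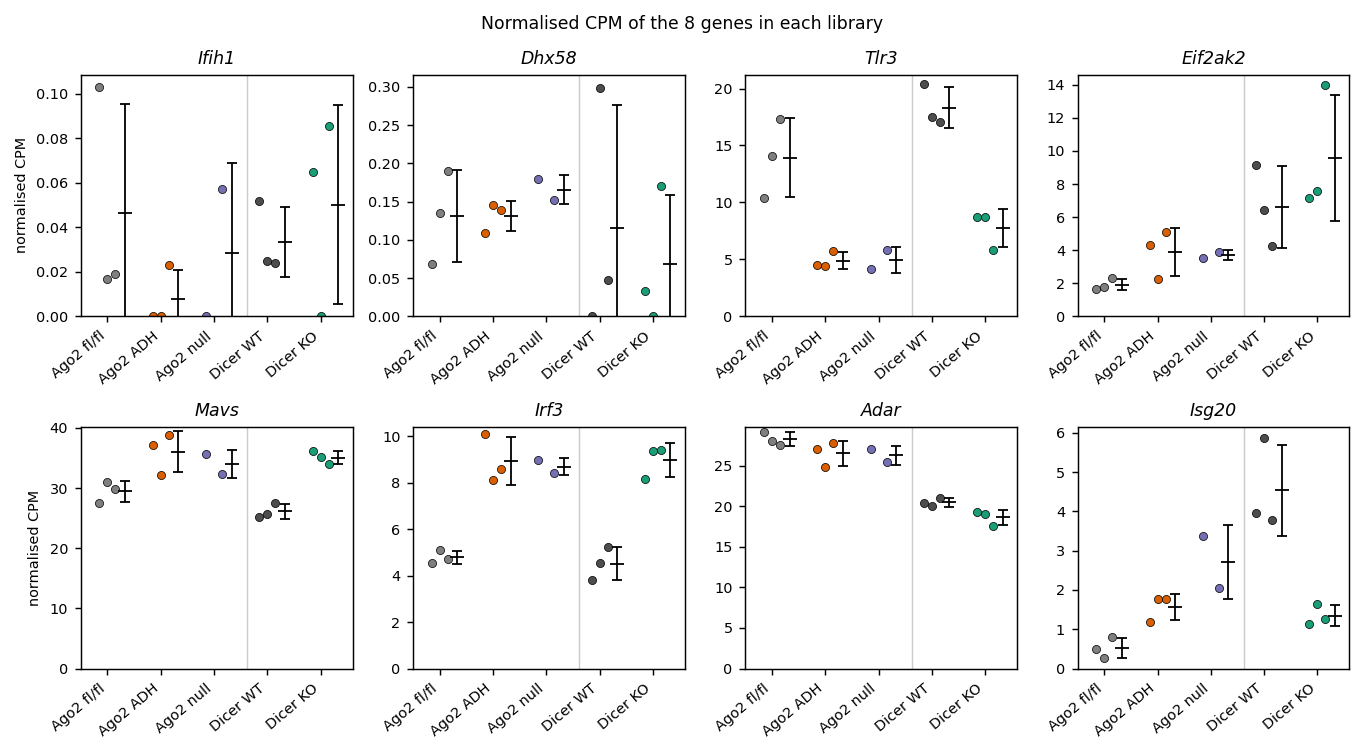
Normalised CPM of each of the 8 genes in the 14 libraries. Each point is 1 library, and the bar beside the points is the mean with the SD of the group, not drawn below 0. The vertical scale differs between panels. *Tlr3* is lower and *Irf3* higher in every mutant library than in every control library of its series, and *Isg20* is higher in the *Ago2* mutants and lower in *Dicer* KO.

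The endosomal sensor *Tlr3* fell in all 3 mutants. *Tlr3* (chromosome 8, 45395665 to 45411075) had 10.4, 14.1 and 17.3 CPM in *Ago2* fl/fl, 4.5, 4.39 and 5.73 CPM in *Ago2* ADH, and 4.16 and 5.79 CPM in *Ago2* null libraries. It had 20.4, 17.5 and 17.1 CPM in *Dicer* WT and 8.75, 8.71 and 5.85 CPM in *Dicer* KO libraries. Every mutant library was below every control library of its series. Log2 fold changes were -1.47 (standard error 0.165, adjusted p = 4.71e-07) in *Ago2* ADH, -1.46 (standard error 0.194, adjusted p = 1.03e-05) in *Ago2* null and -1.25 (standard error 0.155, adjusted p = 2.34e-06) in *Dicer* KO oocytes. In bulk libraries of pooled oocytes, fewer cells that hold a transcript and less of it per cell cannot be told apart.

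These and the following adjusted p-values come from the quasi-likelihood test of edgeR, with Benjamini-Hochberg adjustment over all transcripts, called at a false discovery rate (FDR) of 1%. Calls were common in these data. Between *Ago2* ADH and *Ago2* fl/fl oocytes 40.7% of all transcripts tested were called, 20.5% up and 20.1% down. The figures were 37.2% (18.1% up and 19.1% down) in *Ago2* null and 34.5% (16.7% up and 17.8% down) in *Dicer* KO oocytes. Of the 6 of the 8 genes tested in *Ago2* ADH oocytes, 4 were called up and 1 down. Of 7 tested in *Ago2* null oocytes, 3 were called up and 1 down, and of 6 tested in *Dicer* KO oocytes, 2 up and 2 down. Called down in all 3 mutants were 12.4% of transcripts and called up in all 3 were 11.1%, and among the 8 genes these were *Tlr3* and *Irf3*, 1 in each direction. The libraries did not overlap between mutant and control for 4 of 6 tested genes in *Ago2* ADH, 6 of 7 in *Ago2* null and 5 of 6 in *Dicer* KO oocytes, against 59.9%, 66.9% and 54.5% of all transcripts. *Ago2* ADH and *Ago2* null oocytes share the *Ago2* fl/fl libraries as controls.

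The dsRNA-activated kinase gene *Eif2ak2* rose in both *Ago2* mutants from a low level. *Eif2ak2* (chromosome 17, 78850504 to 78882572) had 1.64, 1.80 and 2.31 CPM in *Ago2* fl/fl, 4.32, 2.25 and 5.09 CPM in *Ago2* ADH, and 3.50 and 3.91 CPM in *Ago2* null libraries. The second *Ago2* ADH library was within the range of the controls, and the *Ago2* null libraries were above it. Its log2 fold change was 1.07 (standard error 0.259, adjusted p = 0.00197) in *Ago2* ADH and 0.98 (standard error 0.224, adjusted p = 0.00162) in *Ago2* null oocytes. In the other series it had 9.18, 6.40 and 4.24 CPM in *Dicer* WT and 7.15, 7.57 and 14 CPM in *Dicer* KO libraries, which overlapped. There the log2 fold change was 0.54 (95% interval 0.03 to 1.05, adjusted p = 0.0967). Its difference from the *Ago2* ADH effect, 0.47 (95% interval -0.33 to 1.27), was not called.

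The calls of *Eif2ak2* rested on single libraries. In *Ago2* ADH oocytes the log2 fold change was 0.96 without *Ago2* fl/fl replicate 1, 0.97 without *Ago2* ADH replicate 1 and 0.82 without *Ago2* ADH replicate 3, and in none of these 3 fits was it called. In *Ago2* null oocytes it was 0.90 and not called without *Ago2* null replicate 2.

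*Mavs*, the mitochondrial adaptor of the RIG-I-like receptors, was the highest of these genes and its differences were small. *Mavs* (chromosome 2, 131234063 to 131248025) had 27.6, 31.0 and 29.9 CPM in *Ago2* fl/fl, 37.1, 32.2 and 38.8 CPM in *Ago2* ADH, and 35.7 and 32.4 CPM in *Ago2* null libraries. It had 25.2, 25.7 and 27.5 CPM in *Dicer* WT and 36.1, 35.1 and 34.0 CPM in *Dicer* KO libraries. All mutant libraries were above their controls. The log2 fold change was 0.34 (standard error 0.0842, adjusted p = 0.00259) in *Ago2* ADH and 0.42 (standard error 0.0879, adjusted p = 0.000653) in *Dicer* KO oocytes, both called. In *Ago2* null oocytes it was 0.24 (95% interval 0.07 to 0.41, adjusted p = 0.031) and not called. The *Ago2* ADH call was lost without *Ago2* fl/fl replicate 1, *Ago2* ADH replicate 1 or *Ago2* ADH replicate 3, with log2 fold changes of 0.28, 0.30 and 0.27.

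*Irf3*, which encodes the transcription factor downstream of MAVS and TLR3, rose in all 3 mutants. *Irf3* (chromosome 7, 44997648 to 45002848) had 4.53, 5.09 and 4.74 CPM in *Ago2* fl/fl, 10.1, 8.11 and 8.60 CPM in *Ago2* ADH, and 8.97 and 8.44 CPM in *Ago2* null libraries. It had 3.80, 4.55 and 5.22 CPM in *Dicer* WT and 8.16, 9.38 and 9.42 CPM in *Dicer* KO libraries. The groups did not overlap within either series. The log2 fold change was 0.95 (standard error 0.133, adjusted p = 8.25e-06) in *Ago2* ADH, 0.89 (standard error 0.142, adjusted p = 6.66e-05) in *Ago2* null and 0.98 (standard error 0.175, adjusted p = 0.000139) in *Dicer* KO oocytes. Reads were counted without regard to strand, and 2.56% of the exonic bases of *Irf3* are shared with *Bcl2l12* on the other strand, which had a mean of 54.9 counts.

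*Adar*, whose protein edits dsRNA, was not called in any comparison. *Adar* (chromosome 3, 89714469 to 89753455) had 29.2, 28.0 and 27.6 CPM in *Ago2* fl/fl, 27.0, 24.8 and 27.8 CPM in *Ago2* ADH, and 27.1 and 25.4 CPM in *Ago2* null libraries. It had 20.4, 20 and 21.0 CPM in *Dicer* WT and 19.3, 19.0 and 17.6 CPM in *Dicer* KO libraries. The log2 fold changes were -0.04 (95% interval -0.20 to 0.11), -0.08 (95% interval -0.24 to 0.09) and -0.14 (95% interval -0.34 to 0.06) in *Ago2* ADH, *Ago2* null and *Dicer* KO oocytes, so a 2-fold change lay outside each interval. *Adar* has an interferon-inducible and a constitutive promoter, but its 3 RefSeq transcripts shared nearly all their counts, 15909, 15863 and 15772 in total, so the counts do not separate them. Of its exonic bases 16.8% are shared with *Chrnb2* on the other strand, which had a mean of 5.36 counts.

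*Isg20* moved in opposite directions in the *Ago2* and *Dicer* mutants. *Isg20* (chromosome 7, 78913396 to 78920396) had 0.499, 0.270 and 0.800 CPM in *Ago2* fl/fl, 1.19, 1.77 and 1.76 CPM in *Ago2* ADH, and 3.38 and 2.04 CPM in *Ago2* null libraries. It had 3.96, 5.87 and 3.77 CPM in *Dicer* WT and 1.14, 1.64 and 1.26 CPM in *Dicer* KO libraries. Every *Ago2* mutant library was above every *Ago2* fl/fl library, and every *Dicer* KO library was below every *Dicer* WT library. On the log2 scale the change was 1.64 (standard error 0.372, adjusted p = 0.00116) in *Ago2* ADH, 2.41 (standard error 0.382, adjusted p = 6.36e-05) in *Ago2* null and -1.76 (standard error 0.265, adjusted p = 2.35e-05) in *Dicer* KO oocytes.

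The difference between these effects was tested as an interaction. It was 3.35 on the log2 scale (standard error 0.455, adjusted p = 3.79e-05) for *Ago2* ADH minus *Dicer* KO and 4.14 (standard error 0.477, adjusted p = 8.26e-06) for *Ago2* null minus *Dicer* KO. None of the other 5 genes tested differed in this way at an FDR of 1%. Among all transcripts, 3.55% were called in the first interaction (1.2% higher and 2.35% lower) and 3.01% in the second (0.98% and 2.03%). The first split into 234 higher and 458 lower transcripts, which became 346 and 351 when libraries were scaled by their totals alone, and the second into 195 and 403, which became 261 and 277.

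The 2 control groups differed in *Isg20* more than the mutants did. Mean *Isg20* was 0.523 ± 0.266 CPM (SD, n = 3) in *Ago2* fl/fl and 4.53 ± 1.17 CPM (SD, n = 3) in *Dicer* WT libraries, a ratio of 8.67, and 1.57, 2.71 and 1.34 CPM in *Ago2* ADH, *Ago2* null and *Dicer* KO libraries. Among 11395 genes with a mean of at least 50 counts in the controls, 0.711% had a gap this large in either direction. *Eif2ak2* had a ratio of 3.45 between these controls, and 1.65% of genes had a gap as large. Of the other 6 genes, *Tlr3*, *Mavs*, *Irf3* and *Adar* had ratios of 1.32, 0.886, 0.945 and 0.725, and *Ifih1* and *Dhx58* were too low to compare. The *Ago2* and *Dicer* series differ in cross and in sequencing run, which cannot be told apart, and no test was made between the controls.

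**Figure D2:**
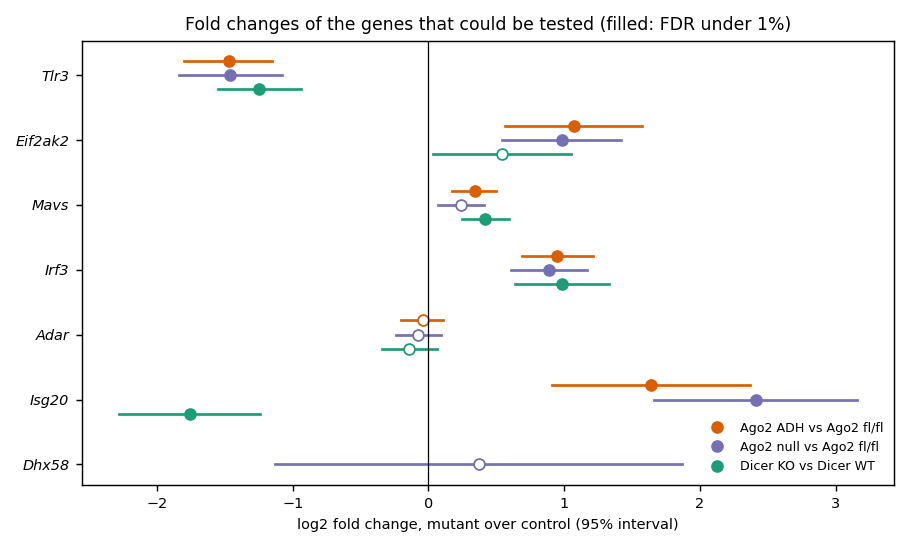
Log2 fold change of each gene that passed the filter, mutant over control, with its 95% interval. Filled points passed an FDR of 1% and open points did not. *Tlr3* lies left of 0 and *Irf3* right of 0 in all 3 mutants, *Adar* lies across 0, and *Isg20* is on opposite sides for *Ago2* and *Dicer* mutants.

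*Ago2* ADH and *Ago2* null oocytes were also compared with each other, which sets loss of AGO2 catalysis against loss of the protein. None of the 6 genes tested was called, and the whole comparison had 0.119% of transcripts called, 23 of 19306 (0.0673% higher and 0.0518% lower in *Ago2* ADH). DESeq2 called none of the 6 either. At an unadjusted p under 0.05 there was 1 of the 6, *Isg20*, with a log2 difference of -0.79 (*Ago2* ADH minus *Ago2* null, adjusted p = 0.343), against 10% of all transcripts. The libraries of 1 of the 6, *Isg20*, did not overlap between these groups, against 25.9% of all transcripts.

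The genes whose levels most resembled each member were sought over the 14 libraries, on log2 CPM centred within each series, among 10234 genes with a mean of at least 100 counts. The most alike were *Trim13* (Pearson's r = 0.991) and *Ckap5* (0.977) for *Tlr3*, *Ccdc158* (0.987) and *Ftl1* (0.982) for *Irf3*, and *Sec24b* (0.976) and *Ess2* (0.955) for *Mavs*. They were *Fut8* (0.959) and *Cmah* (0.956) for *Eif2ak2* and *Lbp* (0.944) and *Ik* (0.924) for *Adar*. Among the members themselves r was -0.929 for *Irf3* and *Tlr3*, 0.915 for *Irf3* and *Mavs* and 0.632 for *Irf3* and *Eif2ak2*. The points share the genotype contrast and the library, and these values are descriptions.

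Around these sensors, the other dsRNA-binding and editing proteins moved in both directions. Of 19 genes tested in this list, 3 were called up and 2 down in *Ago2* ADH, 1 up and 4 down in *Ago2* null, and 3 up and 5 down in *Dicer* KO oocytes. Over all transcripts 40.7%, 37.2% and 34.5% were called in either direction. The list's median log2 fold change was -0.00, -0.04 and -0.06, against 0.01, 0.01 and 0.00 over all genes tested. *Ddx58*, which encodes the sensor RIG-I, fell in all 3. It had 23.7, 25.1 and 23.8 CPM in *Ago2* fl/fl, 13.6, 15.9 and 12.2 CPM in *Ago2* ADH and 11.4 and 16.2 CPM in *Ago2* null libraries. It had 20.6, 22.4 and 20 CPM in *Dicer* WT and 11.1, 9.81 and 11.1 CPM in *Dicer* KO libraries. No mutant library reached a control library. The log2 fold change of *Ddx58* was -0.75 (adjusted p = 3.25e-06), -0.78 (adjusted p = 6.4e-05) and -0.98 (adjusted p = 1.59e-06). At 6.25 CPM per kilobase in *Ago2* fl/fl oocytes it was the only RIG-I-like receptor well above the floor.

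*Zfr*, a zinc-finger protein that binds dsRNA, also fell in all 3 (log2 fold changes -0.35, -0.45 and -0.23), and *Strbp*, a spermatid RNA-binding protein, rose in all 3 (0.43, 0.39 and 0.40). *Stau2*, which carries mRNAs along microtubules, rose in *Ago2* ADH (0.44) and *Dicer* KO (0.45) oocytes. *Adad2*, a germ-cell relative of ADAR, rose in *Ago2* ADH oocytes (1.04), and *Dhx36*, an RNA helicase, fell in *Dicer* KO oocytes (-0.48). The remaining calls, named after their values were seen, included *Stau1* (-0.22) down in *Ago2* null oocytes, and in *Dicer* KO oocytes *Tarbp2* (-0.40) and *Drosha* (-0.39) down and *Adarb2* (0.41) up. *Stau1* and *Zfr* had the highest control levels per length in this list. Without *Ago2* fl/fl replicate 2 the number down in *Ago2* null oocytes was 2, without *Ago2* null replicate 1 the number up was 2, and without *Dicer* WT replicate 1 or 3 or *Dicer* KO replicate 2 or 3 the number down in *Dicer* KO oocytes was 3.

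Genes that carry the signal from the sensors to IRF3 and NF-kB gave mixed calls. Of 23 tested, 3 were called up and 4 down in *Ago2* ADH and 2 up and 2 down in *Ago2* null oocytes, and of 21 tested, 4 up and 5 down in *Dicer* KO oocytes. The shares called over all transcripts were 40.7%, 37.2% and 34.5%. Median log2 fold changes of the list were 0.01, 0.05 and 0.09. *Cyld*, a deubiquitinase that restrains RIG-I and NF-kB signalling, rose in all 3 (1.01, 1.15 and 1.36). *Traf3*, a ubiquitin ligase that links MAVS and the TLR3 adaptor to kinases that activate IRF3, fell in all 3 (-0.64, -0.73 and -0.78), as did *Azi2*, an adaptor of the kinase TBK1 (-0.50, -0.47 and -0.87). *Sting1*, the adaptor of the DNA sensor cGAS, rose in all 3 from a low level, with 14, 29 and 15 counts in *Ago2* fl/fl, 47, 58 and 40 in *Ago2* ADH, 65 and 46 in *Ago2* null, 22, 28 and 22 in *Dicer* WT and 76, 53 and 61 in *Dicer* KO libraries, and is named after its values were seen. *Ywhae*, which encodes the 14-3-3 protein that escorts RIG-I and had the highest control level of the list, fell slightly in *Ago2* ADH oocytes (-0.17). *Cgas*, the sensor of cytoplasmic DNA and another with a high control level, was not called (0.00, -0.05 and -0.16). The list's other calls were *Traf6* down in *Ago2* ADH and *Dicer* KO oocytes (-1.10 and -1.63), *Tomm70a* up in *Ago2* ADH oocytes (0.47), and in *Dicer* KO oocytes *Rnf135* (-1.27) and *Chuk* (-0.41) down and *Fadd* (0.64) and *Tank* (0.47) up.

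These counts depended on libraries. The number up in *Ago2* ADH oocytes was 1 without *Ago2* fl/fl replicate 1, *Ago2* ADH replicate 1 or *Ago2* ADH replicate 3. In *Ago2* null oocytes the number up was 1 without *Ago2* fl/fl replicate 1 or either *Ago2* null library, and the number down was 1 without *Ago2* fl/fl replicate 3.

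Interferon transcripts were close to absent. All 19 interferon genes listed were matched in the files, 9 had no count in any of the 14 libraries, and none passed the filter in any comparison. Their summed level was 0.133 to 0.189 CPM in *Ago2* fl/fl, 0.164 to 0.277 in *Ago2* ADH, 0.152 to 0.214 in *Ago2* null, 0.0747 to 0.285 in *Dicer* WT and 0.065 to 0.213 in *Dicer* KO libraries. *Ifnb1*, which encodes interferon beta, the usual first product of IRF3, had 1 count in *Dicer* KO replicate 1 and 0 in the other libraries. The highest control levels in the list were those of *Ifna12*, with 0 to 11 counts in any library, and *Ifna9*, with 0 to 4. In the *Ago2* ADH libraries, whose floor was 0.0548 to 0.0707 CPM, 0 counts allow up to that level. *Ifnk*, which encodes interferon kappa, had 0 counts in all 6 control libraries, and 6, 0 and 2 in *Ago2* ADH, 2 and 4 in *Ago2* null and 1, 1 and 1 in *Dicer* KO libraries. *Ifna13* had at most 1 count in a control library, and 0, 3 and 5 in *Ago2* ADH, 3 and 0 in *Ago2* null and 0, 1 and 0 in *Dicer* KO libraries. Both are named after their values were seen, and most of these counts were at or under the floor of 3. At this depth no interferon gene had enough counts for a test. The paper describes the full-grown oocyte as transcriptionally inactive and mouse oocytes as without an interferon response. The part of this stage and cell type in the low counts was not tested.

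Of 15 genes for the receptors and the complex that answer interferon, 12 had enough counts for a test. *Ifnar2*, 1 subunit of the type I receptor, had 0, 1 and 0 counts in *Ago2* fl/fl and 3, 0 and 6 in *Ago2* ADH libraries. It had 6 and 6 in *Ago2* null, 2, 2 and 7 in *Dicer* WT and 9, 1 and 0 in *Dicer* KO libraries. *Ifngr1* had 0, 0 and 1 counts in *Ago2* fl/fl, 0 in *Dicer* WT and 11, 2 and 7 in *Dicer* KO libraries. Both are named after their values were seen. Of 12 genes tested, 1 was called up and 2 down in *Ago2* ADH, 1 up and 3 down in *Ago2* null and 2 up and 2 down in *Dicer* KO oocytes. Calls made up 40.7%, 37.2% and 34.5% of all transcripts. The list had median log2 fold changes of -0.19, -0.11 and 0.15. *Ifnar1*, a subunit of the receptor for type I interferons, rose in all 3 (0.58, 0.40 and 0.58). The kinases that act behind interferon receptors, *Jak1* (-0.27, -0.36 and -0.34) and *Jak2* (-0.29, -0.25 and -0.52), fell in all 3. They were also the genes of the list with the highest control levels. *Irf9*, the DNA-binding subunit of the complex, rose in *Dicer* KO oocytes (0.93). *Ifnlr1*, the receptor for interferon lambda, fell in *Ago2* null oocytes (-1.23) and is named after its value was seen. The *Ifnar1* call in *Ago2* null oocytes was lost without *Ago2* null replicate 1, and without that library or *Ago2* fl/fl replicate 2 only 1 gene was down there. Without *Ago2* ADH replicate 3, *Irf9* was also called up in *Ago2* ADH oocytes.

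Fewer interferon-stimulated genes were called up than down. Of 60 matched genes, 37 could be tested in *Ago2* ADH, 40 in *Ago2* null and 37 in *Dicer* KO oocytes. Over all transcripts 20.5%, 18.1% and 16.7% were called up and 20.1%, 19.1% and 17.8% down. In the list 3, 4 and 4 were called up and 10, 11 and 10 down. The median log2 fold change was -0.09, -0.24 and -0.10, against 0.01, 0.01 and 0.00 over all genes tested. In *Ago2* ADH and *Dicer* KO oocytes the sign of the median depended on genes with low counts, since without a filter it was 0.05 and 0.03. In *Ago2* null oocytes it stayed negative without a filter, at -0.07. With 1 library left out the median was -0.18 to -0.06 in *Ago2* ADH, the lowest without *Ago2* ADH replicate 2 and the highest without *Ago2* fl/fl replicate 3. In *Ago2* null oocytes it was -0.31 without *Ago2* null replicate 1 and -0.06 without *Ago2* null replicate 2. In *Dicer* KO oocytes it was -0.16 without *Dicer* WT replicate 2. In all, 13 of 37, 15 of 40 and 14 of 37 were called, near the 40.7%, 37.2% and 34.5% of all transcripts. *Mx1* was not analysed here.

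**Figure D3:**
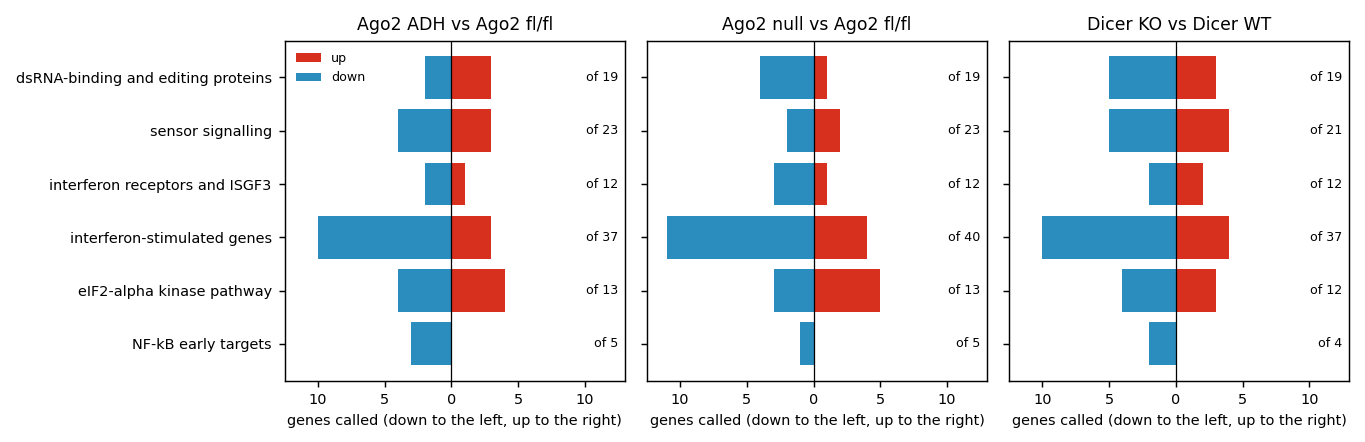
Number of genes called up (right, red) or down (left, blue) at an FDR of 1% in 6 lists of genes around the dsRNA response, for each mutant comparison. The number tested stands at the right of each panel. Interferon-stimulated genes were called down more often than up in all 3 panels, 10, 11 and 10 against 3, 4 and 4. Over all transcripts 20.1%, 19.1% and 17.8% were called down and 20.5%, 18.1% and 16.7% up.

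Several genes that are usually strongly induced by interferon had few counts. *Isg15* had 0, 0 and 0 counts in *Ago2* fl/fl, 5, 0 and 7 in *Ago2* ADH, 10 and 2 in *Ago2* null, 5, 3 and 2 in *Dicer* WT and 2, 3 and 10 in *Dicer* KO libraries. *Rsad2* had at most 5 counts in any *Ago2* library, and 31, 16 and 15 in *Dicer* WT against 21, 13 and 41 in *Dicer* KO libraries. *Irf7* had at most 3 and *Oas1a* at most 12 counts in any library. *Cxcl10* had counts in *Ago2* null replicate 2 (8), *Dicer* WT replicate 3 (4) and *Dicer* KO replicate 1 (5) and in no other library. *Usp18* had 0 to 16 counts. *Ifit1* had more, 13 to 62 counts in any library. It had 0.654, 0.573 and 0.248 CPM in *Ago2* fl/fl and 1.11, 0.914 and 1.04 CPM in *Ago2* ADH libraries, which did not overlap, but its log2 fold change of 1.09 (adjusted p = 0.0253) was not called.

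A pair of interferon-stimulated genes rose strongly in all 3 mutants. *Oas3* encodes an oligoadenylate synthetase, an enzyme activated by dsRNA. It had 29.8, 27.6 and 25.5 CPM in *Ago2* fl/fl, 122, 133 and 124 CPM in *Ago2* ADH, and 118 and 126 CPM in *Ago2* null libraries. It had 100, 89.6 and 106 CPM in *Dicer* WT and 331, 312 and 316 CPM in *Dicer* KO libraries. The groups were far apart in both series. The log2 fold change of *Oas3* was 2.24 (adjusted p = 1.02e-15), 2.17 (adjusted p = 3.63e-13) and 1.69 (adjusted p = 2.42e-13), and it was larger in *Ago2* ADH than in *Dicer* KO oocytes by 0.49 (interaction, adjusted p = 0.00162) and in *Ago2* null than in *Dicer* KO oocytes by 0.45 (adjusted p = 0.00854). Its *Dicer* WT mean was 3.57 times the *Ago2* fl/fl mean. Among the *Oas* genes, *Oas1b* fell in all 3 (-1.14, -0.93 and -1.14), and *Oas2* was called up in *Ago2* null oocytes (2.08) and not in *Ago2* ADH (1.38) or *Dicer* KO oocytes (1.19). The differences between these *Oas2* values were not called.

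*Trim30a*, which encodes a TRIM protein that damps NF-kB signalling, was the other. It had 13.2, 15.1 and 14.6 CPM in *Ago2* fl/fl, 42.6, 41.7 and 44.2 CPM in *Ago2* ADH, 36.7 and 41.2 CPM in *Ago2* null, 16.5, 16.6 and 13.9 CPM in *Dicer* WT and 41.5, 48 and 55.7 CPM in *Dicer* KO libraries. Control and mutant libraries did not overlap. The log2 fold changes were 1.63, 1.47 and 1.63. The other calls upward, named after their values were seen, were *Ube2l6* in *Ago2* ADH (0.33) and *Ago2* null (0.54) oocytes and, in *Dicer* KO oocytes, *Samd9l* (2.54, from 7, 3 and 11 to 31, 35 and 29 counts) and *Uba7* (2.15, from 2, 7 and 7 to 11, 22 and 23 counts). Without *Ago2* null replicate 2, only 2 of these genes were called up in *Ago2* null oocytes.

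Genes of the same list that fell in all 3 mutants were 7, namely *Dtx3l*, *Epsti1*, *Oas1b*, *Pml*, *Zc3hav1*, *Cmpk2* and *Ddx58*. *Dtx3l*, a ubiquitin ligase partner of PARP9, had log2 fold changes of -1.48, -1.21 and -1.47 in the 3 mutants. *B2m*, the light chain of MHC class I and a gene of the list with a high control level, fell in *Ago2* ADH (-0.46) and *Ago2* null (-0.62) oocytes and had a log2 fold change of -0.23 in *Dicer* KO oocytes, which was not called. *Parp12*, the other, had log2 fold changes of -0.09, -0.04 and -0.16 and was not called. Of 34 genes of the list tested in both *Ago2* ADH and *Dicer* KO oocytes, 9 were called in both, none in opposite directions, 8 in 1 and 17 in neither. The share of all transcripts called in both of these comparisons was not calculated. In all 3 mutants 11.1% of transcripts were called up and 12.4% down. Of this list 2 and 7 genes were, with 37, 40 and 37 tested in the 3 comparisons. Whether the agreement is particular to interferon-stimulated genes was not tested. The ISRE letters were found in 20 of 47 genes of this list with a window (42.6%), which include *Oas3*, *Trim30a* and *Ddx58*, so genes with the motif were among those that rose and among those that fell.

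**Figure D4:**
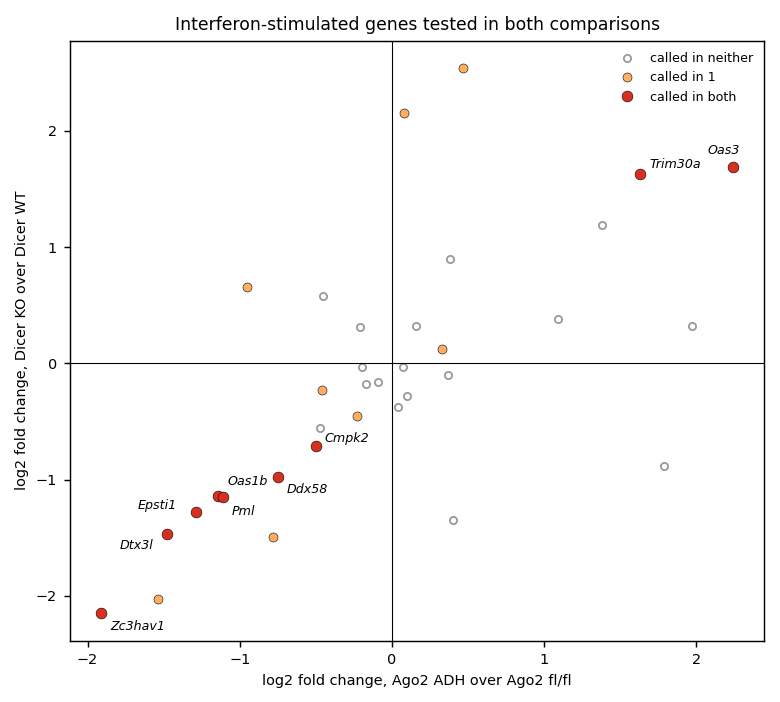
Log2 fold change of the 34 interferon-stimulated genes tested in both comparisons, *Ago2* ADH over *Ago2* fl/fl (horizontal) against *Dicer* KO over *Dicer* WT (vertical). Red points were called in both comparisons, orange points in 1 and open points in neither. *Oas3* and *Trim30a* stand at the upper right, and 7 named genes stand at the lower left.

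Downstream of PKR and the other eIF2-alpha kinases, genes of the integrated stress response moved in both directions. Of 13 genes tested, 4 were called up and 4 down in *Ago2* ADH and 5 up and 3 down in *Ago2* null oocytes, and of 12 tested, 3 up and 4 down in *Dicer* KO oocytes. Among all transcripts the shares called were 40.7%, 37.2% and 34.5%. The list's median log2 fold change was 0.46, 0.43 and -0.03, against 0.01, 0.01 and 0.00 over all genes tested. In *Ago2* ADH oocytes it was 0.11 without *Ago2* fl/fl replicate 2 and 0.14 without *Ago2* ADH replicate 1. With at least 10 counts in every library it was 0.21 in *Ago2* ADH oocytes, with 0.16 in *Ago2* null. *Asns*, asparagine synthetase, a target of the transcription factor ATF4, changed most. It had 1.89, 1.84 and 2.21 CPM in *Ago2* fl/fl, 27.3, 31.3 and 29.3 CPM in *Ago2* ADH, and 29.9 and 31.3 CPM in *Ago2* null libraries. It had 2.64, 3.48 and 2.26 CPM in *Dicer* WT and 27.3, 35.5 and 32.2 CPM in *Dicer* KO libraries. The controls of both series were low and the mutants of both series high. The log2 fold changes of *Asns* were 3.93 (adjusted p = 1.28e-15), 3.98 (adjusted p = 9.06e-14) and 3.50 (adjusted p = 1.4e-12).

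*Atf4* itself rose in all 3 (0.59, 0.69 and 0.47), as did *Sesn2*, a stress-inducible regulator of mTORC1 (1.53, 1.45 and 1.71). *Ddit3*, which encodes CHOP, rose in the *Ago2* mutants (0.55 and 0.47), and *Chac1* rose in *Ago2* null oocytes (0.93). Other genes of the list went down. *Dnajc3*, which encodes an inhibitor of PKR and PERK, fell in all 3 (-0.70, -0.76 and -0.75), as did *Ppp1r15b*, a subunit of the phosphatase that removes the phosphate from eIF2-alpha (-0.47, -0.68 and -0.42), and *Atf3* (-1.02, -1.41 and -2.13). *Eif2ak4* (-0.26) fell in *Ago2* ADH and *Eif2s1*, the eIF2-alpha subunit itself, in *Dicer* KO oocytes (-0.31). The number down in *Ago2* ADH oocytes was 2 without *Ago2* fl/fl replicate 2 or 3, the number up in *Ago2* null oocytes 3 without *Ago2* null replicate 2, and the number down in *Dicer* KO oocytes 2 without *Dicer* WT replicate 3.

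**Figure D5:**
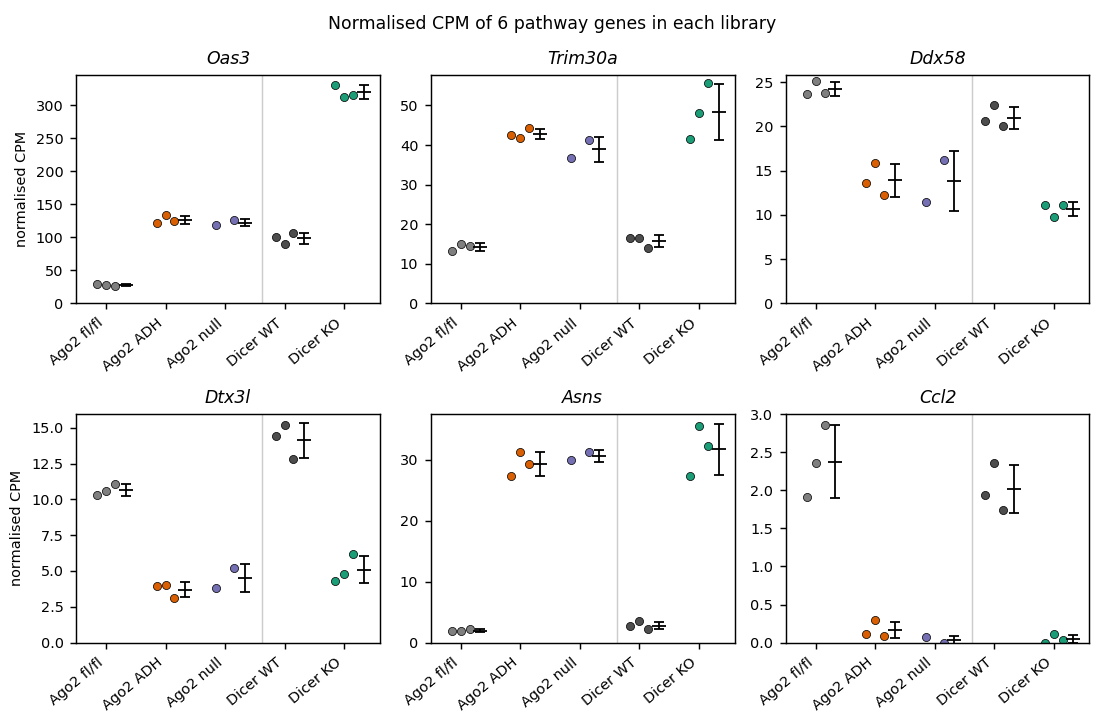
Normalised CPM of 6 genes from the lists in the 14 libraries, drawn as in the plot of the 8 genes. *Oas3*, *Trim30a* and *Asns* are higher, and *Ddx58*, *Dtx3l* and *Ccl2* lower, in every mutant library than in the controls of its series.

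Early targets of NF-kB, the other transcription factor that dsRNA sensors activate, gave no call upward. Over all transcripts 20.5%, 18.1% and 16.7% were called up, so with at most 5 targets tested the lack of upward calls decides nothing. Of 5 tested, 3 were called down in *Ago2* ADH oocytes, with 1 down in *Ago2* null, and of 4 tested, 2 in *Dicer* KO oocytes, with medians of -0.77, -0.49 and -0.70. *Ccl2*, a chemokine, had 111, 140 and 150 counts in *Ago2* fl/fl, 6, 16 and 4 in *Ago2* ADH, 4 and 0 in *Ago2* null, 75, 95 and 73 in *Dicer* WT and 0, 3 and 1 in *Dicer* KO libraries. It was called down in all 3. *Nfkbie*, an inhibitor of NF-kB, fell in *Ago2* ADH (-0.82) and *Dicer* KO (-1.21) oocytes, and *Nfkbia*, another, in *Ago2* ADH oocytes (-0.77). Without *Ago2* fl/fl replicate 3, *Tnfaip3* was called up in *Ago2* null oocytes, and without *Dicer* WT replicate 2 only 1 was called down in *Dicer* KO oocytes.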

How the data were processed

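The authors lysed 20 oocytes per library, amplified cDNA, and sequenced, aligned and counted the reads. The deposited values are raw read counts per RefSeq transcript, made by the authors with TopHat2 2.0.7 on mm10 and HTSeq 0.6.1 without regard to strand (per the submitters' processing notes, which also name DESeq 1.10.0), and were not normalised. Transcripts of 1 gene that share exons each hold the shared reads, and reads with several alignments stand in a separate tally, which stayed out of library sizes and tests. All 14 files were used, each for the sample it is recorded with, and 0 columns of other samples were present.

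Of 26495 transcripts, 26081 were matched to symbols by RefSeq and 113 by GENCODE on GRCm38, the assembly also called mm10. Each comparison was fitted on its own groups with edgeR 4.0.16 (filterByExpr with a minimum count of 10 and minimum total of 15, TMM, quasi-likelihood F-test, Benjamini-Hochberg over all transcripts, 1% FDR). The standard error is the absolute log2 fold change divided by the square root of F, and 95% intervals assume a normal error. Normalised CPM are TMM-scaled over all 14 libraries. Amplified reads carry no molecular identifiers, so the floor of 3 counts covers counting error only, and p-values measure the spread between pools. The fit was tested on simulated data with known changes. Alternatives were DESeq2 1.42.0, RLE scaling, a floor of 10 counts in every library or no filter, 1 transcript per gene, a 5% FDR, all groups in one fit, each library left out and the replicate number as a block. Scaling by library totals alone was added after seeing the data.

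The 8 genes and all lists were chosen with earlier results of these data known. Named are these genes, for each with a mean of at least 100 counts the pair of genes with the most similar pattern, *Ago2* and *Dicer1*, a fixed set of interferon-response genes, and, of each list, the 3 largest called changes in *Ago2* ADH and *Dicer* KO oocytes with a mean of at least 100 normalised counts and the 2 highest control levels per length. Genes outside this rule are said to be named after their values were seen, or complete a count of calls. Some genes of the lists are counted but not reported here by name.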

Additional observations from a re-analysis of the deposited data

Results flagged for a closer look

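The effects on *Isg20* differed between the *Ago2* and *Dicer* mutants by the test of the difference itself. The log2 fold change in *Ago2* ADH oocytes exceeded that in *Dicer* KO oocytes by 3.35, and the one in *Ago2* null oocytes exceeded it by 4.14. Every *Ago2* mutant library was above its controls and every *Dicer* KO library below them. Both differences rest on the same *Dicer* libraries and on the same *Ago2* fl/fl libraries.

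The tally of alignments that were not unique, which no comparison above uses, was higher in every mutant library than in the controls of its series. Of its sum with the counts on transcripts and the reads on no transcript, it was at least 57.3% in *Ago2* ADH libraries. It was at least 57% in *Ago2* null libraries, against at most 34.6% in *Ago2* fl/fl libraries. It was at least 44.4% in *Dicer* KO and at most 31.5% in *Dicer* WT libraries. No group held 4 or more libraries, so single outlying libraries were not searched for.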

How the results depend on the processing

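The number called among the 8 genes was within 1.5 times its main value under every alternative, except that in *Ago2* ADH oocytes it was 3 to 5 with 1 library left out. The low value came without *Ago2* fl/fl replicate 1, *Ago2* ADH replicate 1 or *Ago2* ADH replicate 3, where *Eif2ak2* and *Mavs* lost their calls. *Eif2ak2* in *Ago2* null oocytes also lost its call with all 5 groups in one fit, at a log2 fold change of 0.95. Leaving out an *Ago2* null library leaves 1, which is then assumed to vary like the other groups. Of 565 values of single genes under alternatives, 540 kept direction and call, 8 lost a call and 17 changed sign, none of which was called. *Tlr3*, *Irf3* and *Isg20* kept direction and call in every mutant comparison. With 1 library left out, *Ago2* ADH minus *Ago2* null changed sign for *Adar* (-0.03 to 0.07), *Eif2ak2* (-0.18 to 0.35), *Irf3* (-0.06 to 0.11) and *Tlr3* (-0.25 to 0.22). So did *Adar* in *Ago2* ADH oocytes (-0.09 to 0.01), *Irf3* in *Ago2* ADH minus *Dicer* KO (-0.20 to 0.02) and *Adar* in *Ago2* null minus *Dicer* KO (-0.01 to 0.08). The cause was not tested. The number of all transcripts called between *Ago2* ADH and *Ago2* null oocytes was 23, and it was 81 with DESeq2, 94 without a filter and 142 with the replicate number as a block. It was 9 without *Ago2* ADH replicate 1, 13 without *Ago2* null replicate 1 and 6 without *Ago2* null replicate 2.

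List counts also moved by over 1.5 times. In *Ago2* ADH oocytes, dsRNA-binding genes down went from 2 to 4 with DESeq2 or library totals, and interferon-receptor genes up from 1 to 2 with DESeq2 or at least 10 counts in every library. In *Ago2* null oocytes without a filter, dsRNA-binding genes up went from 1 to 3, sensor-signalling genes from 2 up and 2 down to 4 and 5, and NF-kB targets up from 0 to 1. There dsRNA-binding genes up were 2 with DESeq2 or at least 10 counts in every library, which left 0 NF-kB targets down. With all 5 groups in one fit, stress-response genes up there went from 5 to 3 and receptor genes up from 1 to 0. In *Dicer* KO oocytes, at least 10 counts in every library took interferon-stimulated genes up from 4 to 2 and NF-kB targets down from 2 to 1.

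Groups share replicate numbers in the labels, but same-numbered libraries did not deviate together (r of deviations from the group means -0.191 to 0.0945 over 10 pairs), so the numbers were not taken to pair libraries. With the replicate number as a block, 5, 4, 4, 0, 1 and 1 of the 8 genes were called in *Ago2* ADH, *Ago2* null, *Dicer* KO, *Ago2* ADH vs. *Ago2* null and both interactions, the same numbers as without it. It took dsRNA-binding genes down in *Dicer* KO oocytes from 5 to 3 and NF-kB targets up in *Ago2* null oocytes from 0 to 1. The block turned the sign of *Adar* (-0.03) and *Eif2ak2* (-0.23) between *Ago2* ADH and *Ago2* null oocytes. Depth limits *Ifih1*, *Dhx58* and the interferon genes, which had few counts in every library.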

Other observations

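Some genes of the dsRNA response stood higher, and others lower, in *Dicer* WT than in *Ago2* fl/fl oocytes, although both are controls. The ratio of the means was 3.57 for *Oas3*, and among 11395 genes with a mean of at least 50 counts in the controls 1.57% had a gap this large in either direction, while *Isg20* and *Eif2ak2* are given above. *Ifit3* had 1, 1 and 1 counts in *Ago2* fl/fl and 8, 11 and 5 in *Dicer* WT libraries. In the other direction, *Bst2* had means of 11.5 CPM in *Ago2* fl/fl and 4.95 in *Dicer* WT. *Tarbp2* had 36.8 and 18 CPM, and *Ifitm3* had 46.5 and 27.8 CPM. These genes were picked after their values were seen, and the effects of cross and sequencing run cannot be told apart.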
